A study of Mus musculus with 8 samples.

Results

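The collagen gene family was read in polyadenylated RNA from whole mouse sciatic nerve as all genes whose symbol is Col, a number, the letter a and a number. The rule found 44 genes among the 55487 of the deposited table. They were grouped as 11 fibrillar, 8 basement membrane, 9 fibril-associated, 4 transmembrane and 12 other collagens, the last holding the beaded-filament type VI chains and the short-chain, anchoring and remaining types. Nerves came from mice at postnatal day 6. The 4 Ctrl libraries are CNP+/+ Cdk7lox/lox and the 4 CNP-Cdk7cKO libraries are CNPcre/+ Cdk7lox/lox, so all 8 carry floxed Cdk7 on both alleles, and the groups differ in Cre at 1 Cnp allele. Cre follows Cnp, a gene of myelin-forming glia, and was used to delete Cdk7, a kinase of the cell cycle and of the transcription machinery, in Schwann cells; the whole nerve sequenced here also holds cells that do not express Cnp. The labels do not state that each library is a separate animal, so a p-value speaks of the spread over libraries, which may be technical.

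Collagens are secreted or membrane proteins whose chains wind around each other into a rope-like helix. Fibrillar types (I, III, V, XI) form the tensile fibrils of the endoneurium, perineurium and epineurium, largely made by fibroblasts and perineurial cells. Type IV networks with types XV and XVIII build the basement membranes around Schwann cell and axon units, vessels and perineurial cells, and Schwann cells themselves make type IV and type V chains. Chains are hydroxylated and folded in the endoplasmic reticulum, trimmed of their propeptides outside the cell and crosslinked.

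Libraries held 16897242 to 21527891 estimated counts. Levels are CPM, scaled between libraries by the trimmed mean of M values (TMM), and a fold change sets CNP-Cdk7cKO over Ctrl. A gene is called where the p of edgeR's quasi-likelihood test, adjusted by Benjamini-Hochberg over all 15056 tested genes, is below 0.05. The targeted gene, Cdk7, was at 21.5 ± 0.70 CPM (SD, n = 4) without Cre and at 11.6 ± 1.35 CPM with it, with no overlap. By Xist and Y-linked counts Ctrl 2 to 4 were male and the other 5 libraries, Ctrl 1 included, female, so genotype and sex are largely confounded and cannot be told apart in a pooled contrast. Markers of skeletal muscle, 18 of 20 of them called lower, summed to 601, 2052, 1239 and 5991 CPM in Ctrl 1 to 4. In CNP-Cdk7cKO they summed to 109 to 683 CPM, an overlap through Ctrl 1. Their mean log2 CPM did not overlap, at 3.86 to 7.07 over Ctrl and 1.36 to 3.46 over CNP-Cdk7cKO libraries. Genotype and muscle RNA are therefore largely confounded as well.

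The sequences before the starts of 4 members are shown for the contrast described below, in which Col5a1, Col11a1 and Col6a2 were higher and Col28a1 lower in CNP-Cdk7cKO. RefSeq windows (GRCm38.p6) matched 35 of the 44 members in 38 windows, and the letters searched, on both strands, were GGGCGG (the GC box), CCAAT (a box bound by nuclear factor Y), the TATA box as TATAAA, and the element of activator protein dimers as TGACTCA, none of which contains another. Capitals mark matches, and each line gives the 250 bases before the start, 5′ to 3′, in windows with no annotated exon.
Col5a1, chr2:27886175-27886424, plus strand: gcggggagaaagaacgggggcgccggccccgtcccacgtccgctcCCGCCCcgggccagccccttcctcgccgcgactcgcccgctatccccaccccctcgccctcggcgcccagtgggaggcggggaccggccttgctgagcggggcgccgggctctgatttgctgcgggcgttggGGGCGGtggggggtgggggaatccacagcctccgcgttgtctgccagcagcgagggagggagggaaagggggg
Col11a1, chr3:114030290-114030539, plus strand: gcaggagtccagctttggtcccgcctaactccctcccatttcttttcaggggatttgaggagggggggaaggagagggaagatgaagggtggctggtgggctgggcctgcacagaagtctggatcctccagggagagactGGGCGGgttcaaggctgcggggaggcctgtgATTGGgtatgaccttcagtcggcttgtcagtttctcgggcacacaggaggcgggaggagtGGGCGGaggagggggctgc
Col6a2, chr10:76623631-76623880, minus strand: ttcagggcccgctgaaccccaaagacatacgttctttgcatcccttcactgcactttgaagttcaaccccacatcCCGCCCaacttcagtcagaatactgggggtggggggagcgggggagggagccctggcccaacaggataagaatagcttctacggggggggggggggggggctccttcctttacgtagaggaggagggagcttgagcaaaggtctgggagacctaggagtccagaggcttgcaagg
Col28a1, chr6:8192618-8192867, minus strand: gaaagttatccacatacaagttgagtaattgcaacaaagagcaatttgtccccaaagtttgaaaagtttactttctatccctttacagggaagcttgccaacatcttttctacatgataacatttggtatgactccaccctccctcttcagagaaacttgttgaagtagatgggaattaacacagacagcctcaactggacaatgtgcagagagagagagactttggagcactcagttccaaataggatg
The window of Col28a1 holds none of the 4 motifs. That of Col6a6, the other member called lower, holds GGGCGG, and that of Col15a1, called higher, holds none. GGGCGG stood in 22 of 38 collagen windows (57.9%) and in 32.7% of all 32851 windows of the same length. It stood in 8 of 11 windows of members called higher against 12 of 23 of those not called. These are counts of windows, not of genes. Col6a2, whose windows overlap, and Col18a1 entered the 11 more than once. Col1a1, Col5a2, Col12a1, Col22a1 and Col26a1, all called higher, had no window. CCAAT stood in 34.2% of collagen windows and 33.8% of all, TATAAA in 13.2% and 12.4%, and TGACTCA in 2.63% and 4.46%. These matches describe letters in the windows and were not tested against the expression values.

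Collagen transcripts took 5.83, 5.79, 5.41 and 5.33% of all counts in Ctrl 1 to 4 and 6.72, 6.99, 6.30 and 6.33% in CNP-Cdk7cKO 1 to 4. The groups did not overlap. Scaled by TMM, the family summed to 57014 CPM in Ctrl and 64694 in CNP-Cdk7cKO, 1.13 times as much, with library sums of 54460.2 to 60291 and 61431 to 69187 CPM.

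A few fibrillar genes dominated the family: Col1a1, Col1a2 and Col3a1 together held 70.2 ± 1.10% of collagen counts in Ctrl and 70.5 ± 0.46% in CNP-Cdk7cKO. Per kilobase of merged exons, Ctrl means ran from 2393 CPM per kb for Col1a1, 1384 for Col3a1 and 865 for Col1a2 to 376 for the beaded-filament chain Col6a1, and the Ctrl libraries of each of these did not overlap those of the next in order. Col4a2, Col4a1 and Col5a1 followed at 307, 303 and 297 CPM per kb, and their Ctrl ranges overlapped. Col15a1 (182) and Col6a2 (181) overlapped each other, as did Col5a3 (140.5) and Col5a2 (129). The highest fibril-associated member was Col14a1 (74.0 CPM per kb) and the highest transmembrane member Col23a1. At the low end stood Col6a4, Col25a1 and Col19a1 at 0.0973, 0.0402 and 0.0262 CPM per kb. Merged exons join those of all annotated transcripts, so these levels and their order depend on the annotation. They measured 6563 bases for Col1a1 and 12426 for Col1a2, and 4380 for Col6a1 and 8326 for Col6a2. Without division by length, Ctrl means were 15705 and 10749 CPM for Col1a1 and Col1a2, and 1645 and 1504 CPM for Col6a1 and Col6a2.

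**Figure D1:**
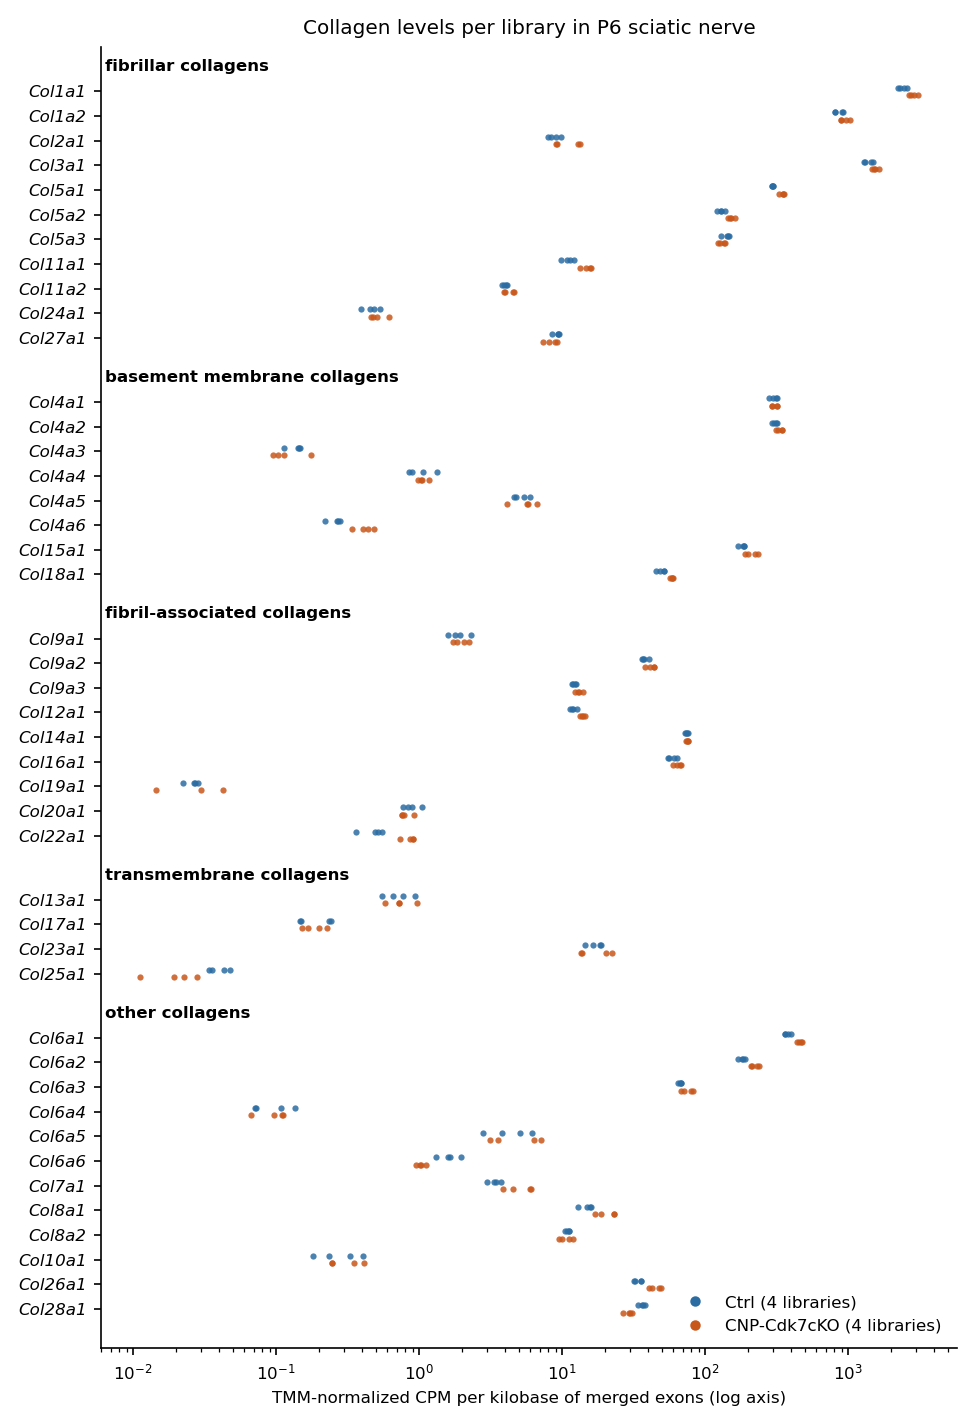
Level of each of the 44 collagen genes in each library, in TMM-normalized CPM per kilobase of merged exons on a log axis, by class. Blue points are the 4 Ctrl libraries and orange points the 4 CNP-Cdk7cKO libraries, and a library at 0 (Col19a1 in CNP-Cdk7cKO 2) has no point. Col1a1, Col3a1 and Col1a2 lie above all others, and levels span from 2393 CPM per kb for Col1a1 to 0.0262 for Col19a1 in Ctrl.

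In the comparison of CNP-Cdk7cKO with Ctrl nerves, 14 collagen genes rose and 2 fell among the 42 with enough counts to be tested. The risers were Col1a1, Col5a1, Col5a2 and Col11a1 among the fibrillar collagens, Col4a6, Col15a1 and Col18a1 in basement membranes, Col12a1 and Col22a1 among the fibril-associated, and Col6a1, Col6a2, Col7a1, Col8a1 and Col26a1 of the other types. Col6a6 and Col28a1 fell. Their log2 fold changes lay between 0.22 and 0.83 for the risers and were -0.66 and -0.31 for the others. In all tested genes 11.7% were called, 5.07% higher and 6.60% lower, against 33.3% and 4.76% of the tested collagens, so the share called lower was near the background. The median log2 fold change was 0.13 for the tested collagens and 0.00 for all tested genes, and 33 of the 42 collagens had a positive value.

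All 4 CNP-Cdk7cKO values lay above the Ctrl range for 15 of the 42 members and below it for 2, against 9.34% and 9.51% of all tested genes. All 42 had at least 11 estimated counts in each library, so none entered the test through 1 group alone. Col19a1 (0 to 6 estimated counts a library) and Col25a1 (3 to 12) were not tested. Whole nerve was sequenced, so a change in the number of cells of a type and a change in RNA per cell cannot be told apart.

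**Figure D2:**
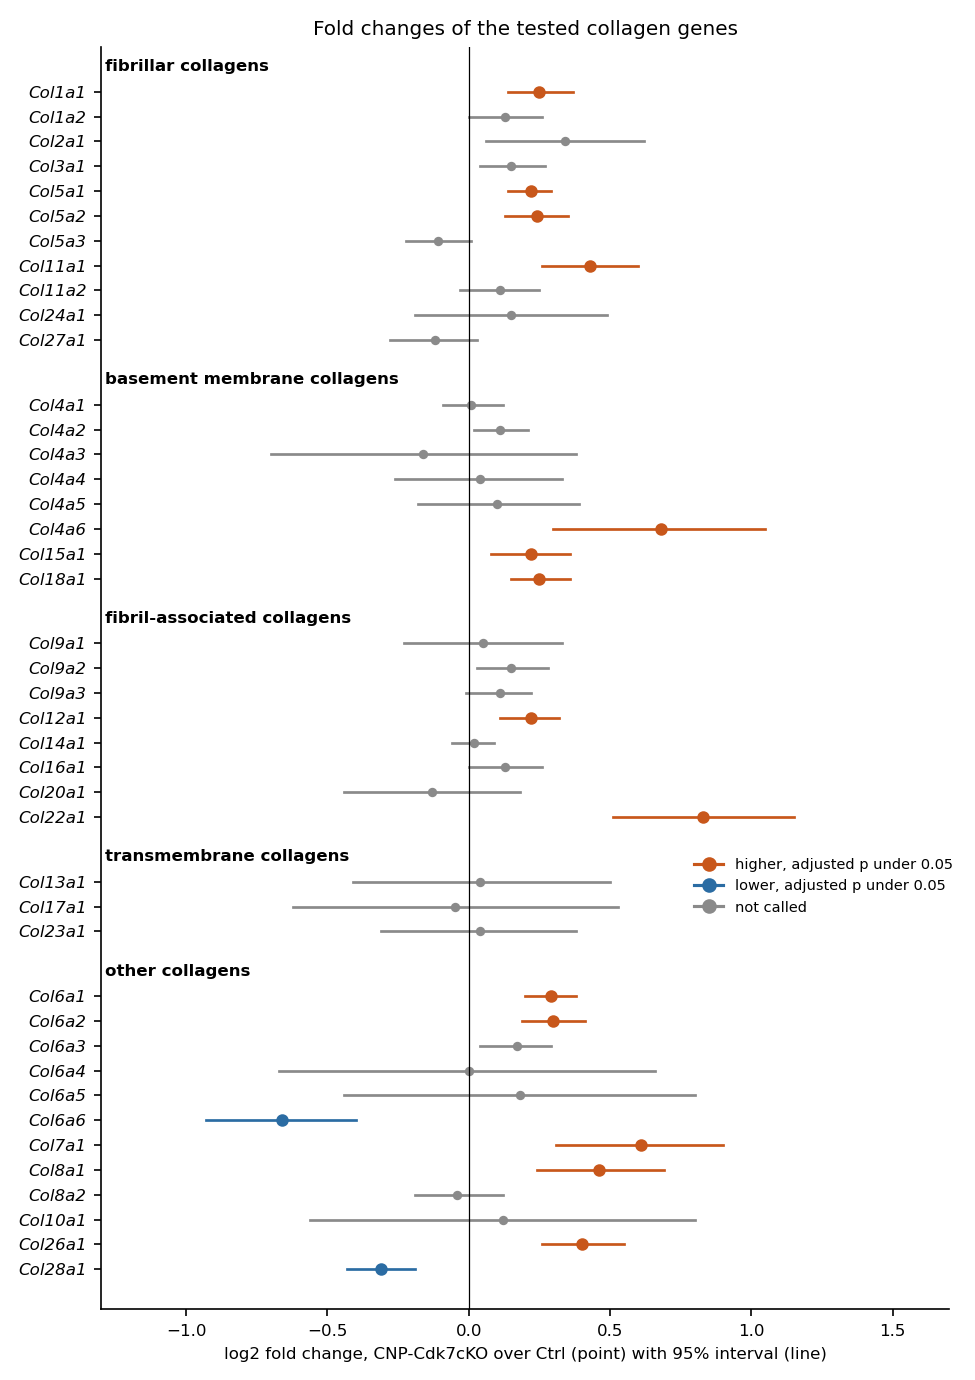
The log2 fold change of each of the 42 tested collagen genes (points), CNP-Cdk7cKO over Ctrl, with its 95% interval (lines), by class; colour shows the call at an adjusted p under 0.05. The 14 called higher lie between 0.22 and 0.83, and Col6a6 and Col28a1 lie below 0 at -0.66 and -0.31.

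The calls depended on how the sex difference was treated. With Xist as a covariate 0 collagens were called in either direction, against 14 higher and 2 lower in the fit of all 8 libraries without it. All tested genes then gave 76 higher and 167 lower, against 763 and 994. In the female libraries alone, Ctrl 1 stands alone and its spread is taken from the CNP-Cdk7cKO libraries, so no calls of that fit are read here. All 16 kept their sign in both fits. In the female libraries this was fixed in advance, since all CNP-Cdk7cKO values of the 16 lie outside the Ctrl range, Ctrl 1 included. The fit with Xist gave much the same values, so kept signs are no separate support. The median of the 14 risers, picked by the fit without the covariate, was 0.28 in each against 0.30. Over all tested collagens the median was 0.08 with Xist and 0.09 in the female libraries, against 0.13. Positive values numbered 30 of 42 and 30 of 43, against 33 of 42. The median standard error of the 16 was 1.63 and 1.82 times as wide. With the muscle markers as a covariate 3 stayed called (Col11a1, Col12a1 and Col26a1), again with 16 of 16 signs kept. Over the other scalings, filters and tests and with each library left out, 14 to 16 of the 16 calls were kept. Values that moved by over 1.5 times were those of Col1a1 (0.14) and Col5a2 (0.15) with Xist as a covariate and in the female libraries alone, Col6a6 in the same fits (-0.33 and -0.35) and with the muscle markers, and Col12a1 and Col15a1 (0.35 each) with the muscle markers.

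**Figure D3:**
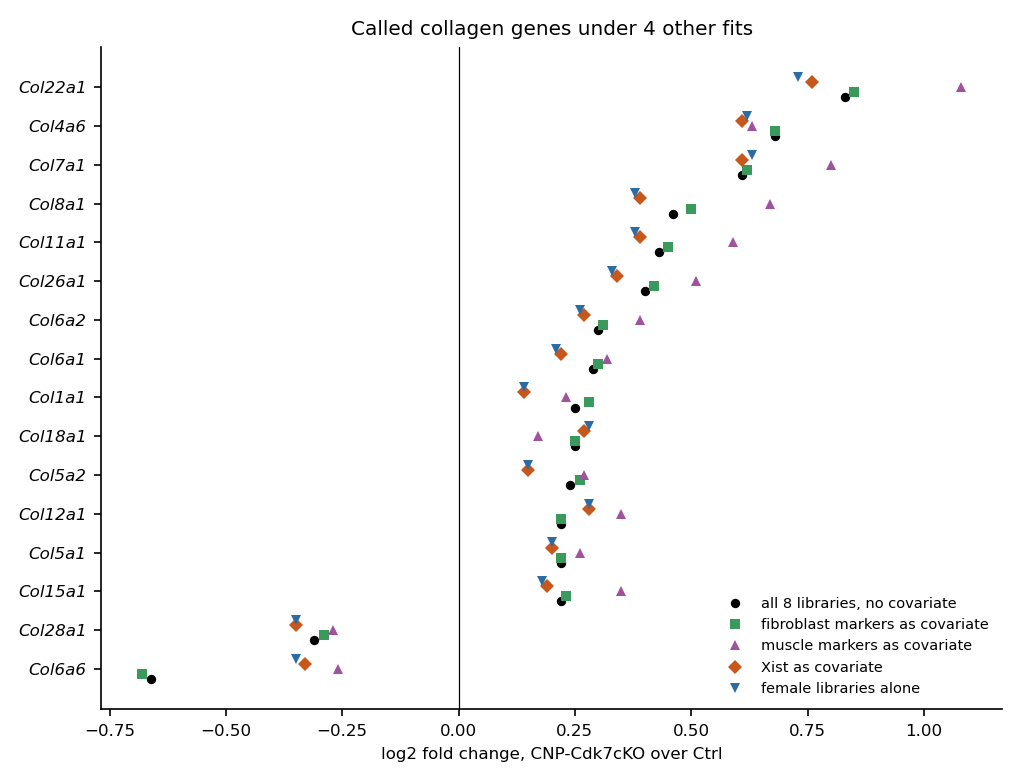
Log2 fold change of the 16 called collagen genes in the fit of all 8 libraries without a covariate and in 4 other fits (markers). All 16 keep their sign in each of the 4, but the female libraries are part of the 8 and their sign was fixed in advance. The value of Col6a6 goes from -0.66 to -0.26 with the muscle markers and that of Col1a1 from 0.25 to 0.14 with Xist as a covariate.

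Fibroblast markers are set beside these counts because fibroblasts make most fibrillar collagen. Of 14 non-collagen markers 2 rose, the receptor gene Pdgfra (0.19 ± 0.05, edgeR adjusted p = 0.0188) and the transcription factor gene Osr2 (0.42 ± 0.07, edgeR adjusted p = 0.00281), and 0 fell, with a median log2 fold change of 0.04. Their summed level was 2235 to 2393 CPM over Ctrl libraries and 2414 to 2797 CPM in CNP-Cdk7cKO, with no overlap, mostly from Dcn and Lum, while their mean log2 CPM overlapped, at 5.69 to 6.03 and 5.82 to 6.00. With that mean as a covariate all 16 calls were kept, and Col1a2, Col3a1 and Col6a3 were called higher as well (0.15, 0.18 and 0.18). Because that mean overlapped between the groups, the fit could take away little of a group difference, whatever its source. Kept and added calls therefore do not set the collagens apart from fibroblast RNA. The summed level, which did separate the groups, was not used as a covariate. How much fibroblast RNA adds to the collagen values was not tested.

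Of 10 Schwann cell markers 5 fell and 0 rose, and of 10 macrophage markers 5 rose and 0 fell, with sums of 405 to 503 CPM over Ctrl libraries and 487 to 584 CPM in CNP-Cdk7cKO that overlapped. Of 9 perineurial (8 tested), 10 endothelial and 10 mural markers 0, 0 and 1 rose and 0, 0 and 1 fell, and the sums of each overlapped between groups. Of 9 tendon markers (7 tested), Tnc and Thbs4 rose and 0 fell, and the sum was 784 to 956 CPM over Ctrl libraries and 1079 to 1280.1 CPM in CNP-Cdk7cKO, without overlap; the defining tendon genes Scx and Tnmd measured 0.200 to 1.41 and 1.79 to 3.67 CPM over the 8 libraries. Of 8 adipocyte markers (6 tested) 2 fell. The background for these lists and for the fibroblast markers is all tested genes, of which 5.07% were called higher and 6.60% lower. The part of Schwann cell, macrophage, tendon and muscle RNA in the collagen values was not tested.

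Among fibrillar collagens Col1a1, Col5a1, Col5a2 and Col11a1 rose, while the partner chains Col1a2, Col11a2 and Col5a3 did not pass. Of 11 tested, 4 were called higher and 0 lower, with a median log2 fold change of 0.15. Col1a1, the main chain of type I collagen (chromosome 11, 94936224 to 94953042, GRCm38), measured 16924, 16033, 15161 and 14701 CPM (Ctrl 1 to 4) against 19087, 20231, 17434 and 18157 CPM (CNP-Cdk7cKO 1 to 4). Every CNP-Cdk7cKO library lay above every Ctrl library, and the change was 19.2% (log2 fold change 0.25 with SE 0.05, adjusted p = 0.0122 by edgeR). Col1a2, the other type I chain (chromosome 6, 4504814 to 4541544), measured 11493, 11316, 10090.2 and 10098 CPM (Ctrl 1 to 4) against 12064, 12863, 11054 and 11095 CPM (CNP-Cdk7cKO 1 to 4). Its groups overlapped, since 2 CNP-Cdk7cKO libraries lay below Ctrl 1 and 2, and it did not pass (log2 fold change 0.13 with SE 0.06, adjusted p = 0.194 by edgeR). Col3a1, the chain of type III collagen of pliable tissues (chromosome 1, 45311538 to 45349706), measured 14606, 14216, 12622 and 12901 CPM (Ctrl 1 to 4) against 15200.1, 16095, 14783 and 14412 CPM (CNP-Cdk7cKO 1 to 4). CNP-Cdk7cKO 4 lay below Ctrl 1, and the gene did not pass (log2 fold change 0.15 with SE 0.05, adjusted p = 0.0827 by edgeR).

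Type V collagen nucleates and limits the width of type I fibrils. Col5a1, its obligate chain (chromosome 2, 27886425 to 28039514), measured 2549.6, 2507, 2506 and 2539 CPM (Ctrl 1 to 4) against 2966, 3024, 2795 and 2959 CPM (CNP-Cdk7cKO 1 to 4). The Ctrl values lay close together, all below the CNP-Cdk7cKO values (log2 fold change 0.22 with SE 0.03, adjusted p = 0.00260 by edgeR). Col5a2, its usual partner (chromosome 1, 45374321 to 45503282), measured 1313, 1229, 1157 and 1242 CPM (Ctrl 1 to 4) against 1452, 1561, 1425 and 1393 CPM (CNP-Cdk7cKO 1 to 4), again without overlap (log2 fold change 0.24 with SE 0.05, adjusted p = 0.00979 by edgeR). Col5a3, a chain that Schwann cells make and that binds the proteoglycan glypican (chromosome 9, 20770050 to 20815067), measured 976, 1006, 969 and 875 CPM (Ctrl 1 to 4) against 931, 915, 867 and 838 CPM (CNP-Cdk7cKO 1 to 4). Its groups overlapped and its mean was the lower in CNP-Cdk7cKO, so it is the type V chain on the other side of 0 (log2 fold change -0.11 with SE 0.05, adjusted p = 0.213 by edgeR).

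Col11a1, a type XI chain that takes the place of type V in cartilage and some other fibrils (chromosome 3, 114030540 to 114220718), measured 145, 137, 125 and 155 CPM (Ctrl 1 to 4) against 202, 201, 186 and 169 CPM (CNP-Cdk7cKO 1 to 4). The lowest CNP-Cdk7cKO library stood above the highest Ctrl library (log2 fold change 0.43 with SE 0.08, adjusted p = 0.00485 by edgeR). Its partner Col11a2 measured 28.3, 25.9, 26.8 and 27.8 CPM (Ctrl 1 to 4) against 26.9, 31.1, 27.6 and 31.6 CPM (CNP-Cdk7cKO 1 to 4). It overlapped and did not pass, with a log2 fold change of 0.11 (95% interval -0.03 to 0.25). Col2a1, the main cartilage fibril chain, measured 76.7, 84.2, 73.2 and 90.8 CPM (Ctrl 1 to 4) against 84.0, 85.2, 119 and 123 CPM (CNP-Cdk7cKO 1 to 4). CNP-Cdk7cKO 3 and 4 stood above the other 6 libraries, which overlapped (log2 fold change 0.34 with SE 0.13, adjusted p = 0.115 by edgeR); DESeq2 called it at the same fold change. Of 10 cartilage and bone markers (5 tested) 0 were called, and they summed to 36.2 to 40.2 CPM over Ctrl libraries and 34.1 to 49.1 CPM in CNP-Cdk7cKO, with Sox9 at 29.1 to 43.3, Cnmd at 1.45 to 3.43 and Acan at 0.580 to 2.68 CPM over the 8 libraries and Ucma, Matn1 and Matn3 at or near 0. Their part in the Col2a1 values was not tested. Col27a1, a fibrillar chain of developing cartilage, measured 123, 122, 121 and 110.0 CPM (Ctrl 1 to 4) against 117, 119, 105 and 95.6 CPM (CNP-Cdk7cKO 1 to 4), an overlap with a log2 fold change of -0.12 (95% interval -0.28 to 0.03). Col24a1, known from bone, measured 3.67, 4.08, 3.47 and 2.97 CPM (Ctrl 1 to 4) against 4.71, 3.87, 3.64 and 3.53 CPM (CNP-Cdk7cKO 1 to 4), with 0.15 (95% interval -0.19 to 0.49).

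**Figure D4:**
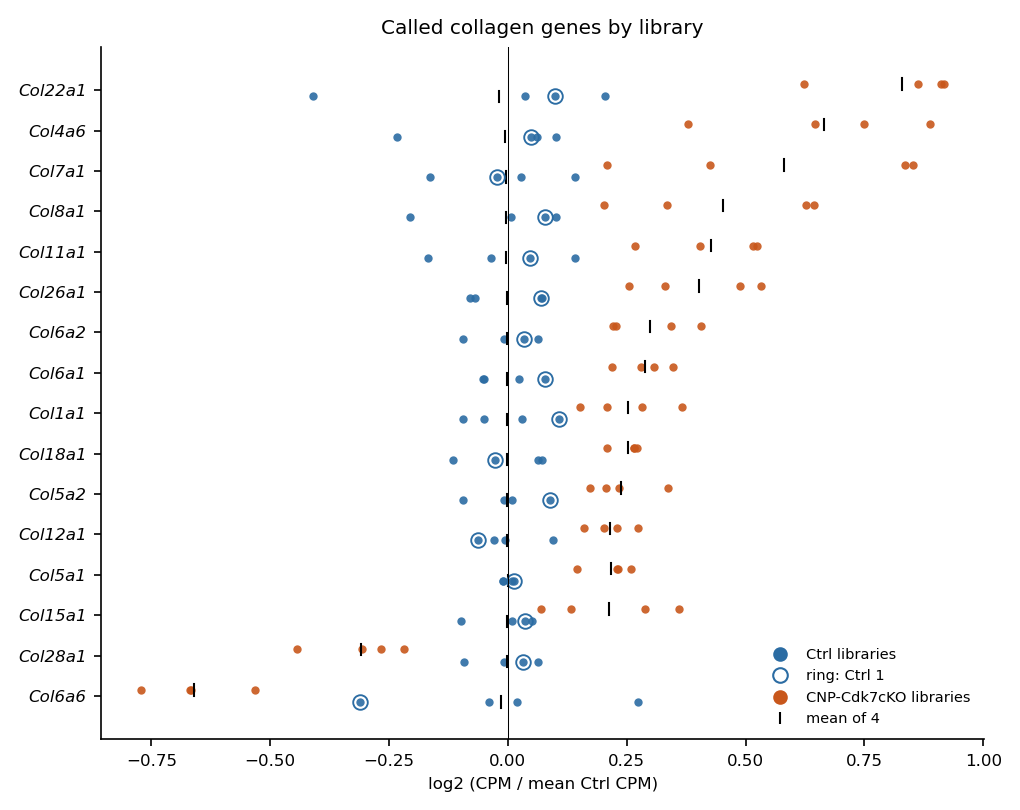
The 16 called collagen genes in each library, as log2 of CPM over the mean Ctrl CPM, with Ctrl in blue, CNP-Cdk7cKO in orange, black ticks for the mean of 4 and a ring for Ctrl 1, the female control. In all 16 genes the 4 CNP-Cdk7cKO points lie outside the Ctrl points. Ctrl 1 is the Ctrl point closest to them in Col6a6 (12.0 CPM), Col1a1, Col5a1, Col5a2 and Col6a1, and another Ctrl library is closest in the rest.

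Among basement membrane collagens the main type IV chains did not pass and the associated types XV and XVIII rose. Of 8 tested, 3 were called higher and 0 lower (median log2 fold change 0.11). Col4a1, with Col4a2 the core chain of all basement membranes (chromosome 8, 11198423 to 11312826), measured 2238, 2379, 2335 and 2091 CPM (Ctrl 1 to 4) against 2364, 2377, 2189 and 2205 CPM (CNP-Cdk7cKO 1 to 4). All CNP-Cdk7cKO values lay inside the Ctrl range, with a log2 fold change of 0.01 (95% interval -0.09 to 0.12). Col4a2 (chromosome 8, 11312805 to 11449287) measured 2008, 2104, 2056 and 1953 CPM (Ctrl 1 to 4) against 2297, 2272, 2069.7 and 2148 CPM (CNP-Cdk7cKO 1 to 4). CNP-Cdk7cKO 3 lay below Ctrl 2, and the gene did not pass after adjustment, at 0.11 (95% interval 0.02 to 0.21). Both intervals lie within a 1.5-fold change in either direction.

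Col15a1, a chain with heparan or chondroitin sulfate side chains that links fibrils to basement membranes in nerve and muscle (chromosome 4, 47208161 to 47313167), measured 1184, 1079.7, 1162 and 1196 CPM (Ctrl 1 to 4) against 1483, 1412, 1213 and 1267 CPM (CNP-Cdk7cKO 1 to 4). CNP-Cdk7cKO 3 stood just above Ctrl 4 (log2 fold change 0.22 with SE 0.06, adjusted p = 0.0465 by edgeR). The call was lost under RLE scaling, and without any of 6 libraries (each Ctrl library and CNP-Cdk7cKO 1 and 2). Col18a1, the source of the fragment endostatin (chromosome 10, 77052178 to 77166548), measured 339, 363, 361 and 319 CPM (Ctrl 1 to 4) against 399, 415, 417 and 415 CPM (CNP-Cdk7cKO 1 to 4), a clear gap between the groups (log2 fold change 0.25 with SE 0.05, adjusted p = 0.00678 by edgeR). Col4a6 (chromosome X, 141165403 to 141474076) measured 2.14, 2.22, 2.16 and 1.76 CPM (Ctrl 1 to 4) against 3.83, 3.24, 2.69 and 3.48 CPM (CNP-Cdk7cKO 1 to 4), on 35 to 74 estimated counts a library (log2 fold change 0.68 with SE 0.17, adjusted p = 0.0265 by edgeR). Its call was lost without any of 6 libraries (Ctrl 2 to 4 and CNP-Cdk7cKO 1, 2 and 4). The female Ctrl 1 lay among the male Ctrl values of this X-linked gene.

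Col4a5, which starts 1308 bases from Col4a6 on the opposite strand, measured 40.2, 36.2, 31.1 and 31.8 CPM (Ctrl 1 to 4) against 45.0, 38.8, 38.1 and 27.8 CPM (CNP-Cdk7cKO 1 to 4). It overlapped between the groups, with a log2 fold change of 0.10 (95% interval -0.18 to 0.39). Col4a4, with Col4a3 a chain of kidney and lung basement membranes, measured 14.1, 11.3, 9.06 and 9.46 CPM (Ctrl 1 to 4) against 12.4, 11.1, 10.9 and 10.5 CPM (CNP-Cdk7cKO 1 to 4). All CNP-Cdk7cKO values lay inside the Ctrl range, with 0.04 (95% interval -0.26 to 0.33). Col4a3, whose gene lies 71 bases from Col4a4 on chromosome 1, measured 1.36 ± 0.160 CPM (SD, n = 4) over the Ctrl and 1.21 ± 0.359 CPM over the CNP-Cdk7cKO libraries, with -0.16 (95% interval -0.70 to 0.38).

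Of the 8 tested fibril-associated collagens, which sit on the surface of fibrils, 2 rose and 0 fell (median 0.12). Col12a1, which binds type I fibrils in dense connective tissue (chromosome 9, 79598991 to 79718831), measured 174, 181, 178 and 194 CPM (Ctrl 1 to 4) against 209, 219.6, 203 and 213 CPM (CNP-Cdk7cKO 1 to 4). All CNP-Cdk7cKO values lay above all Ctrl values (log2 fold change 0.22 with SE 0.05, adjusted p = 0.0131 by edgeR). Col14a1, the related and more abundant member (chromosome 15, 55307750 to 55520803), measured 518, 530.2, 523 and 506 CPM (Ctrl 1 to 4) against 512, 526, 532 and 530.2 CPM (CNP-Cdk7cKO 1 to 4). Its groups overlapped, and the interval of its log2 fold change was the narrow -0.06 to 0.09. Col22a1, known from the junction of muscle and tendon (chromosome 15, 71795795 to 72034227), had the largest fold change of the 14 risers and measured 4.71, 3.31, 4.51 and 5.07 CPM (Ctrl 1 to 4) against 8.28, 8.31, 6.78 and 8.0 CPM (CNP-Cdk7cKO 1 to 4). The CNP-Cdk7cKO values did not overlap Ctrl (log2 fold change 0.83 with SE 0.14, adjusted p = 0.00459 by edgeR), on 64 to 172 estimated counts a library. With the muscle markers as a covariate its log2 fold change was 1.08.

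Col16a1, which sits in microfibrils and at basement membranes, measured 431, 408, 375 and 374 CPM (Ctrl 1 to 4) against 432, 448, 403 and 454 CPM (CNP-Cdk7cKO 1 to 4). It overlapped, with a log2 fold change of 0.13 (95% interval 0.00 to 0.26). The type IX chains of cartilage fibrils did not pass either. Col9a1 measured 9.06, 8.07, 9.81 and 11.6 CPM (Ctrl 1 to 4) against 8.74, 9.33, 10.5 and 11.3 CPM (CNP-Cdk7cKO 1 to 4), with 0.05 (95% interval -0.23 to 0.33). Col9a2 measured 115, 113, 112 and 125 CPM (Ctrl 1 to 4) against 118, 136, 128 and 135 CPM (CNP-Cdk7cKO 1 to 4), with 0.15 (95% interval 0.03 to 0.28). Col9a3 measured 47.6, 45.2, 48.5 and 45.7 CPM (Ctrl 1 to 4) against 47.2, 50.1, 50.6 and 53.6 CPM (CNP-Cdk7cKO 1 to 4), with 0.11 (95% interval -0.01 to 0.22). For all of the type IX chains the groups overlapped. Col20a1 measured 3.98, 4.55, 4.27 and 5.36 CPM (Ctrl 1 to 4) against 4.71, 4.06, 3.89 and 3.93 CPM (CNP-Cdk7cKO 1 to 4), with -0.13 (95% interval -0.44 to 0.18).

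The transmembrane collagens, which are shed from or stay in the plasma membrane, had 0 calls among 3 tested. Col23a1, the most abundant of them (chromosome 11, 51289920 to 51583918), measured 93.9, 106, 107 and 82.6 CPM (Ctrl 1 to 4) against 116, 127, 77.2 and 79.0 CPM (CNP-Cdk7cKO 1 to 4). CNP-Cdk7cKO 1 and 2 lay above every Ctrl library and CNP-Cdk7cKO 3 and 4 below every Ctrl library, so the mean difference was near 0 and its interval wide, 0.04 (95% interval -0.31 to 0.38). Col13a1, known from the neuromuscular junction, measured 3.55, 4.29, 2.53 and 3.02 CPM (Ctrl 1 to 4) against 2.64, 4.45, 3.34 and 3.34 CPM (CNP-Cdk7cKO 1 to 4), an overlap with 0.04 (95% interval -0.41 to 0.50). Col17a1, a hemidesmosome collagen, measured 1.16 ± 0.318 CPM (SD, n = 4) over the Ctrl and 1.12 ± 0.204 CPM over the CNP-Cdk7cKO libraries, with -0.05 (95% interval -0.62 to 0.53). Of 6 keratinocyte markers 1 had enough counts to be tested and was not called, and Krt5, Krt14 and Dsg3 were at or near 0 in all 8 libraries.

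Among the other collagens the type VI chains Col6a1 and Col6a2 rose, Col6a3 did not pass and Col6a6 fell. Of 12 tested, 5 were called higher and 2 lower (median 0.18). Type VI collagen forms beaded filaments close to cells, and its chains Col6a1, Col6a2 and Col6a3 assemble together. Col6a1 (chromosome 10, 76708792 to 76726168) measured 1736, 1588, 1586 and 1672 CPM (Ctrl 1 to 4) against 1998, 2092, 1914 and 2037 CPM (CNP-Cdk7cKO 1 to 4). Of the 42 tested members it had the smallest adjusted p, and the groups lay apart (log2 fold change 0.29 with SE 0.04, adjusted p = 0.00192 by edgeR). Col6a2 (chromosome 10, 76595762 to 76623630) measured 1541, 1495, 1410.1 and 1572 CPM (Ctrl 1 to 4) against 1761, 1993, 1754 and 1908 CPM (CNP-Cdk7cKO 1 to 4) and rose alike (log2 fold change 0.30 with SE 0.05, adjusted p = 0.00400 by edgeR). Col6a3 (chromosome 1, 90765923 to 90843971) measured 807, 816, 777 and 802 CPM (Ctrl 1 to 4) against 950.4, 980.3, 850.2 and 816 CPM (CNP-Cdk7cKO 1 to 4). Its groups did not overlap, although the highest Ctrl and the lowest CNP-Cdk7cKO value both round to 816 CPM, and it did not pass (log2 fold change 0.17 with SE 0.06, adjusted p = 0.0854 by edgeR). Without CNP-Cdk7cKO 4 it was called higher, at 0.21.

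Col6a6 (chromosome 9, 105687809 to 105828160), a chain related to Col6a3, measured 12.0, 15.1, 14.5 and 18.0 CPM (Ctrl 1 to 4) against 10.3, 9.38, 8.73 and 9.37 CPM (CNP-Cdk7cKO 1 to 4). It fell without overlap (log2 fold change -0.66 with SE 0.12, adjusted p = 0.00551 by edgeR). Ctrl 4, with most muscle transcripts, was highest and Ctrl 1, with fewest among the controls, lowest of the Ctrl libraries. By summed CPM, CNP-Cdk7cKO 2 had more muscle marker RNA than Ctrl 1 (683 against 601 CPM). By the mean log2 CPM of the markers, the measure used as the covariate, CNP-Cdk7cKO 2 had less (3.46 against 3.86). Col6a6 was at 9.38 CPM in CNP-Cdk7cKO 2 and 12.0 CPM in Ctrl 1. The log2 fold change was -0.26 with the muscle markers and -0.33 with Xist as a covariate. The part of muscle RNA in the Col6a6 values was not tested. Its neighbour Col6a5, 27917 bases away, measured 47.6, 57.6, 35.9 and 26.4 CPM (Ctrl 1 to 4) against 59.6, 66.8, 29.6 and 33.5 CPM (CNP-Cdk7cKO 1 to 4). In each group libraries 1 and 2 stood above libraries 3 and 4, and the groups overlapped, at 0.18 (95% interval -0.44 to 0.80). Perineurial markers summed to 709 and 699 CPM in Ctrl 1 and 2 and 580.1 and 574 CPM in Ctrl 3 and 4, and to 643 and 628 against 592 and 554 CPM in CNP-Cdk7cKO. Their part in the Col6a5 values was not tested. Col6a4 had at most 19 estimated counts a library and a log2 fold change of -0.00 (95% interval -0.67 to 0.66).

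Col28a1, a collagen known from the surroundings of Schwann cells in peripheral nerve (chromosome 6, 7997808 to 8192617), measured 181, 185, 166 and 176 CPM (Ctrl 1 to 4) against 147, 152, 143 and 130.1 CPM (CNP-Cdk7cKO 1 to 4). All CNP-Cdk7cKO libraries lay below all Ctrl libraries (log2 fold change -0.31 with SE 0.06, adjusted p = 0.00581 by edgeR). The log2 fold change was -0.35 in the fit with Xist and -0.27 in that with muscle markers. Of 10 Schwann cell markers 5 also fell between the groups (median of the list -0.26); their part in the Col28a1 values was not tested.

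Col26a1, a secreted collagen with an EMI domain (chromosome 5, 136741759 to 136883209), measured 289.5, 263, 261 and 290.1 CPM (Ctrl 1 to 4) against 347, 399, 329 and 387 CPM (CNP-Cdk7cKO 1 to 4). It was separated between the groups (log2 fold change 0.40 with SE 0.07, adjusted p = 0.00337 by edgeR). Col8a1, a short-chain network collagen of vessel walls (chromosome 16, 57624258 to 57754737), measured 123, 117, 101 and 125 CPM (Ctrl 1 to 4) against 179.9, 182, 147 and 134 CPM (CNP-Cdk7cKO 1 to 4). CNP-Cdk7cKO 1 and 2 were highest, and CNP-Cdk7cKO 4 stood above the highest Ctrl value (log2 fold change 0.46 with SE 0.10, adjusted p = 0.0147 by edgeR). Its partner Col8a2 measured 48.8, 49.9, 50.3 and 47.1 CPM (Ctrl 1 to 4) against 44.9, 53.7, 50.0 and 42.8 CPM (CNP-Cdk7cKO 1 to 4). It overlapped, at -0.04 (95% interval -0.19 to 0.12). Col7a1, the anchoring fibril collagen of skin (chromosome 9, 108953586 to 108984875), measured 34.1, 35.3, 38.2 and 30.9 CPM (Ctrl 1 to 4) against 62.5, 61.8, 40.0 and 46.5 CPM (CNP-Cdk7cKO 1 to 4). CNP-Cdk7cKO 3 was closest to the Ctrl range, above Ctrl 3 (log2 fold change 0.61 with SE 0.13, adjusted p = 0.0144 by edgeR). Col10a1, of hypertrophic cartilage, measured at most 1.28 CPM and did not pass.

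Of the 26 tested members that were not called, 19 had a positive log2 fold change. For 20 of the 26 the 95% interval lay within a 1.5-fold change in both directions.

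Partner chains were compared by their ratios. For 12 pairs of chains, chosen after the values were seen, the ratio of CPM was taken within each library, which removes library scaling. Col1a1 over Col1a2 was 1.47, 1.42, 1.50 and 1.46 in Ctrl 1 to 4 and 1.58, 1.57, 1.58 and 1.64 in CNP-Cdk7cKO 1 to 4. The CNP-Cdk7cKO ratios were all higher (log2 difference 0.12; exact permutation test, two-sided, p = 0.0286, which is the lowest a 4 against 4 design can give, and 0.0571 adjusted over the 12 pairs). Col4a2 over Col4a1 was 0.897, 0.884, 0.880 and 0.934 in Ctrl and 0.972, 0.956, 0.945 and 0.974 in CNP-Cdk7cKO, also without overlap (log2 difference 0.10). Col4a6 over Col4a5 was higher without overlap too (0.58).

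Col5a3 over Col5a1 was 0.379 ± 0.024 (SD, n = 4) in Ctrl and 0.302 ± 0.014 in CNP-Cdk7cKO, all lower in CNP-Cdk7cKO (log2 difference -0.32). Col8a2 over Col8a1 (-0.50) and Col6a6 over Col6a3 (-0.81) were lower without overlap as well. These 6 pairs all have the same exact p of 0.0286 and an adjusted value of 0.0571, so none passed after adjustment. Col6a2 over Col6a1 was 0.914 ± 0.030 in Ctrl and 0.922 ± 0.031 in CNP-Cdk7cKO, and Col5a2 over Col5a1 was 0.489 ± 0.022 and 0.497 ± 0.021; both overlapped (log2 difference 0.01 and 0.02). Col3a1 over Col1a1 and Col11a2 over Col11a1 (-0.10 and -0.33) overlapped, as did Col6a3 over Col6a1 (-0.13) and Col9a2 over Col9a3 (0.05).

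**Figure D5:**
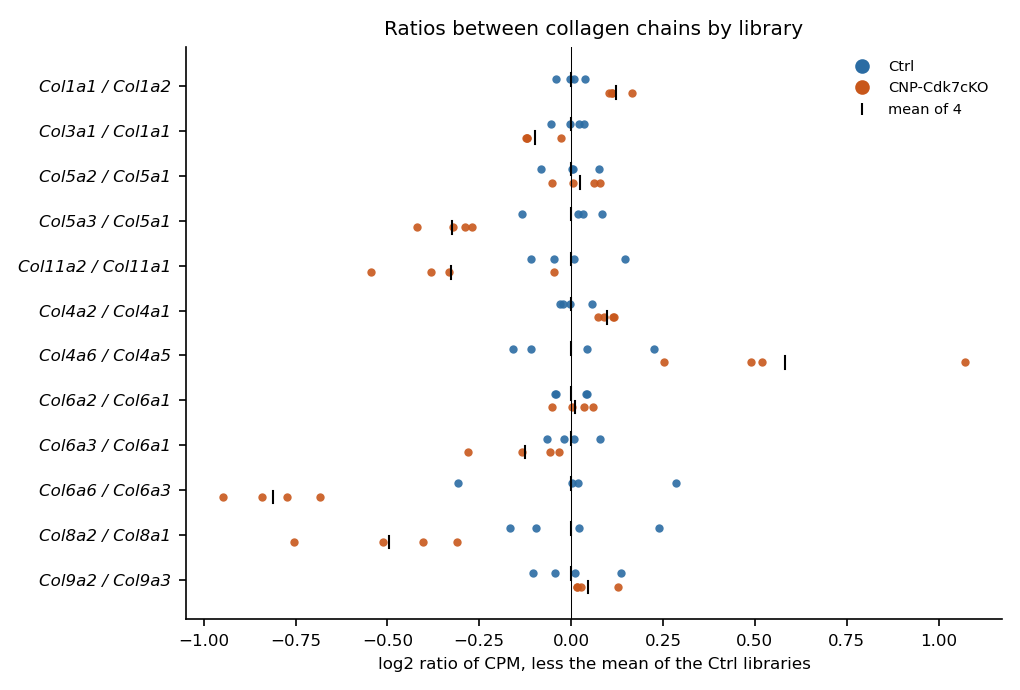
Log2 ratio of CPM between 12 pairs of collagen chains in each library, less the mean of the Ctrl libraries, with Ctrl in blue, CNP-Cdk7cKO in orange and black ticks for the mean of 4. The groups do not overlap in 6 pairs (Col1a1/Col1a2, Col5a3/Col5a1, Col4a2/Col4a1, Col4a6/Col4a5, Col6a6/Col6a3 and Col8a2/Col8a1), and Col6a2/Col6a1 and Col5a2/Col5a1 lie around 0.

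Genes that lie side by side were both called, both not called or split, pairs again chosen after the values were seen. Col4a1 and Col4a2 share 22 bases at their divergent starts on chromosome 8 and were both not called. Col6a1 and Col6a2, 85161 bases apart on chromosome 10, both rose. Col3a1 and Col5a2, 24614 bases apart on chromosome 1, differed in their calls, as did Col4a5 and Col4a6 on chromosome X and Col6a5 and Col6a6 on chromosome 9, where 1 of each was called; these differences were not tested.

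Genes that fold, trim and crosslink collagen rose in part, given here as log2 fold change ± SE beside the CPM where both are printed. Of 19 enzymes and chaperones of the endoplasmic reticulum 6 rose and 0 fell (median log2 fold change 0.14), and 3 were called higher without Ctrl 2, Ctrl 3 or Ctrl 4. P3h1, which with Crtap hydroxylates selected prolines, went from 176 ± 2.65 to 199 ± 2.39 CPM (SD, n = 4; 0.18 ± 0.04 SE, edgeR adjusted p = 0.0115). Crtap (0.19), the protein disulfide isomerase gene P4hb (0.18), also a subunit of the prolyl hydroxylase, the lysyl hydroxylase gene Plod1 (0.20) and Serpinh1 (0.16), the collagen chaperone, rose by similar amounts. Of 12 tested genes of propeptide processing and crosslinking 4 rose and 1 fell (median 0.12), and 2 were called higher without Ctrl 3, CNP-Cdk7cKO 1 or CNP-Cdk7cKO 2. The N-proteinase genes Adamts14 (0.33 ± 0.05) and Adamts2 (0.25 ± 0.06), the enhancer gene Pcolce (438 ± 10.2 to 521 ± 20.8 CPM, 0.25 ± 0.04) and the lysyl oxidase-like gene Loxl4 (0.78 ± 0.21) rose. Tll2, a gene of the tolloid-like proteases, fell from 7.36 ± 0.87 to 3.94 ± 0.87 CPM (-0.90 ± 0.17).

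Of 12 tested proteoglycans and glycoproteins that bind fibrils 1 rose and 0 fell (median 0.06), namely biglycan (Bgn, 596 ± 15.6 to 673 ± 16.2 CPM, 0.17 ± 0.04, edgeR adjusted p = 0.0122), and 3 were called higher without CNP-Cdk7cKO 4. Of 12 collagen receptors 4 fell and 1 rose (median 0.02). Adgrg1, an adhesion receptor that binds type III collagen, fell from 95.1 ± 3.05 to 61.3 ± 4.13 CPM (-0.63 ± 0.05, edgeR adjusted p = 9.85e-05), and Adgrg6, which binds type IV collagen, from 62.6 ± 2.03 to 45.2 ± 5.71 CPM (-0.47 ± 0.08). The integrin subunit genes Itga2 (-0.48 ± 0.07) and Itga11 (-0.50 ± 0.13) fell, and Mrc2, which takes up collagen fragments, rose (0.20 ± 0.06), a call lost without any of 6 libraries (Ctrl 2 to 4 and CNP-Cdk7cKO 1, 2 and 4).

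Of 12 tested collagen-degrading proteases and inhibitors 4 rose and 1 fell (median 0.16). In this list 1 was called higher without Ctrl 3 or CNP-Cdk7cKO 2, and 2 without Ctrl 2, Ctrl 4 or CNP-Cdk7cKO 4. Mmp2, the gelatinase that cleaves type IV and denatured collagen, rose from 315 ± 8.05 to 494 ± 41.4 CPM (SD, n = 4; 0.65 ± 0.06 SE, edgeR adjusted p = 0.000105). Its activator Mmp14 (0.15), the cathepsin gene Ctsk (0.26) and Fap (0.25) rose, and the neutrophil collagenase gene Mmp8 fell from 2.60 ± 0.28 to 0.985 ± 0.24 CPM (-1.40 ± 0.22). Over the 5 lists together, 16 of 67 tested genes rose (23.9%) and 6 fell (8.96%), against the 5.07% and 6.60% of all tested genes. All 22 kept their sign in the fits with Xist and with muscle markers and in the female libraries alone. The female libraries are part of the same 8, so signs kept there and with Xist are no separate support. With Xist 3 (Adgrg1, Itga2 and Mmp2) stayed called, and with muscle markers 2 (Adgrg1 and Mmp2). Leaving out 1 library kept 12 (without Ctrl 3; 14 without Ctrl 2) to 20 of the 22.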

How the data were processed

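Polyadenylated RNA of 8 sciatic nerve libraries was sequenced from stranded libraries, per the labels' protocols. The authors deposited estimated counts per gene, made with STAR and Salmon on GRCm38, per the submitters' processing notes; their versions and annotation release were not given in the labels. Of the values, 8.29% were not whole, and they were rounded to whole numbers. Symbols were found for 55227 of 55487 gene IDs (260 had none), from a reference list of gene names or, where absent there, from GENCODE M21. GENCODE M21 also gave coordinates and merged exon lengths. Strand use in counting was not recorded in the labels, so reads of overlapping antisense genes cannot be told apart.

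Genes passing filterByExpr (minimum count 10, total 15) were tested with edgeR 4.0.16 (R 4.3.3): TMM, glmQLFit and glmQLFTest on group, Benjamini-Hochberg adjustment over 15056 genes, threshold 0.05. Alternatives were RLE scaling, TMM without collagens, other count filters, DESeq2 1.42.0, limma-voom (limma 3.58.1), the replicate number as a block, Xist, muscle or fibroblast covariates, female libraries alone and each library left out. Exact permutation tests were used for chain ratios.

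On simulated data with this comparison's means and library sizes, 50 genes with a mean above 2 CPM were planted at each fold. Recovery was 30% for 1.25-fold, 76% for 1.5-fold, 92% for 2-fold and 100% for 3-fold among 15056 genes, with 12 other genes called. The simulated libraries held no difference in sex or muscle RNA, and recovery of genes at lower levels was not measured. Counts of replicates differed beyond sampling noise (chi-square per degree of freedom 3.86 to 17.6), so none was counted as a duplicate. Intervals are 95%.

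The members and gene lists were chosen with earlier results of these data known. Named genes were all collagens, with every library's value at 2 CPM or more in the higher group (38 members), and up to 5 called genes with the smallest p from each companion list. Tnc, Thbs4, the named cartilage, tendon and keratinocyte genes and the genes Dcn and Lum were named beside their lists after their values were seen.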

Additional observations from a re-analysis of the deposited data

Results flagged for a closer look

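In each group of 4 libraries the lowest and highest value of each of the 42 tested collagens was set against the others with Dixon's test at its 95% level. Of 84 groups 3 (3.57%) passed, where chance gives about 5%. Col4a3 measured 1.13 CPM in Ctrl 3, apart from 1.41 to 1.47 CPM in the other Ctrl libraries. Col18a1 measured 399 CPM in CNP-Cdk7cKO 1, apart from 415 to 417 CPM in the others. Col27a1 measured 110.0 CPM in Ctrl 4, apart from 121 to 123 CPM in the others.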

How the results depend on the processing

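Collagens called higher numbered 14 (2 lower) in the fit of all 8 libraries, 13 (2) under RLE, 14 (2) with TMM without collagens and with either other count filter, 15 (2) by DESeq2 and by limma-voom, and 17 (2) with the fibroblast covariate. They numbered 3 (0 lower) with the muscle covariate, 0 (0) with Xist and 0 (0) in the female libraries alone, where all genes gave 99, 76 and 37 higher and 154, 167 and 77 lower; the median standard error of the 16 calls was then 1.71, 1.63 and 1.82 times as wide. Leaving out 1 library gave 12 to 14 higher and 2 lower collagens, and 470 (without Ctrl 2; 500.0 without Ctrl 3) to 655 higher and 653 (without Ctrl 2) to 860 lower genes; fewer samples were fitted. The replicate block gave 14 and 2, losing Col4a6 and Col15a1 and adding Col1a2 and Col3a1. Same-numbered libraries correlated at 0.04, 0.08, 0.13 and 0.01, and 2 of 8 correlated best with their own number. The labels give these libraries no link but the number, and such correlations cannot exclude one. The 45 values that changed sign, in 14 members, were called neither before nor after. They were, with the muscle covariate, Col4a1 -0.00, Col4a3 0.19, Col4a4 -0.22, Col14a1 -0.02, Col17a1 0.07 and Col20a1 0.19; with Xist, Col4a4 -0.34, Col4a5 -0.12, Col6a5 -0.07, Col13a1 -0.06 and Col20a1 0.07; in female libraries, Col4a4 -0.33, Col4a5 -0.11, Col6a5 -0.01, Col13a1 -0.05 and Col20a1 0.06; by limma-voom, Col6a4 0.01 and Col17a1 0.02; with the block, Col6a4 0.01; and with the fibroblast covariate, Col6a4 0.07. The cause was not tested. Leaving out 1 library, log2 fold changes ran for Col4a1 -0.02 to 0.04, Col4a4 -0.05 to 0.17, Col6a4 -0.13 to 0.19, Col6a5 -0.03 to 0.38, Col8a2 -0.09 to 0.01, Col9a1 -0.02 to 0.15, Col10a1 -0.06 to 0.34, Col13a1 -0.10 to 0.19, Col17a1 -0.16 to 0.09 and Col23a1 -0.10 to 0.14. Depth limits Col4a3, Col6a4, Col10a1 and Col17a1, at 11 to 36 estimated counts a library.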
